A study of Mus musculus with 26 samples.

Results

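The mRNAs described here encode the catalytic head of mitochondrial ATP synthase and the stalks that hold and turn it, in brown fat of wild-type and Imp2 knockout mice. The 9 members were chosen by their gene symbols, and where a symbol has several transcripts, only the most counted one was used. All 9 stand among the 9378 genes of the IgG table, and 7 stand among the 1189 genes of the knockout table, as the deposited count tables are called here. Atp5j and Atp5f1 are listed in the IgG table only.

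ATP synthase makes ATP from ADP and phosphate with the energy of protons that flow back through the inner mitochondrial membrane. The head is a ring of alternating alpha subunits (Atp5a1) and beta subunits (Atp5b), and the catalytic sites lie mainly on beta. The central stalk, made of gamma (Atp5c1), delta (Atp5d) and epsilon (Atp5e), turns inside that ring, while the peripheral stalk of OSCP (Atp5o), d (Atp5h), F6 (Atp5j) and b (Atp5f1) keeps the head from turning with it. Brown fat makes heat by letting protons bypass this enzyme through the uncoupling protein Ucp1, and it is known for much respiratory chain and little ATP synthase. All 9 mRNAs come from nuclear genes, and their proteins are imported into mitochondria after translation.

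RNA was recovered with an antibody to IMP2, an RNA-binding protein encoded by Igf2bp2 that is known to attach to mRNAs and to affect their translation and stability. The wild-type IMP2 immunoprecipitates (WT IP) had 3 libraries, the knockout IMP2 immunoprecipitates (KO IP) 2, the wild-type immunoprecipitate with an unspecific IgG antibody (IgG) 1, the knockout total RNA 2 and the wild-type total RNA 4. Every animal was male, 10 weeks old and fed normal chow, and all groups spent a night at 4 °C before brown fat was taken, so none stands for a warmer temperature. Imp2-/- mice and their wild-type littermates came from crosses of Imp2+/- parents on the C57Bl/6J background. The knockout table holds 2 libraries each of WT IP (21 and 22), KO IP (23 and 24), KO total RNA (18 and 19) and WT total RNA (16 and 17). The IgG table holds WT IP 25, IgG 26 and WT total RNA 15 and 20. The series has 26 samples, and its 14 liver samples were not analysed here.

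Libraries of the knockout table summed to 780333 to 4916160 counts, of which the members took 1.96 to 3.24%. Libraries of the IgG table summed to 1321758 to 3750101 counts, with a share of 1.18 to 2.46%. Levels below are CPM, the counts scaled to the depth of each library by TMM, a method that takes most genes as not differing between libraries. They are compared between libraries of one table and not between genes, whose lengths were not used here. The mRNA of Igf2bp2 itself could not be used to check the knockout label, because that table does not list it. Of 9 brown adipocyte markers 5 are in the knockout table, with a summed level of 25162 to 33860 CPM, and Ucp1 lay between 5194 and 10859.7 CPM. Of 16 skeletal muscle markers 8 are listed, with summed levels of 1540 and 7248 CPM in WT IP, 363 and 1384 CPM in KO IP, 596 and 2470 CPM in KO total RNA and 2701 and 10515 CPM in WT total RNA. Muscle marker RNA thus varied between libraries of a group and lay lower in the knockout than in the wild type, both among immunoprecipitates and among total RNA. None of the endothelial or leukocyte markers is in the knockout table. In bulk tissue fewer cells of a type and less RNA per cell cannot be told apart.

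By the RefSeq annotation of GRCm38.p6, the assembly that mm10 names, 5 of the 9 members overlap another gene. Haus1 shares 118 bases with Atp5a1, Cbarp 1658 bases with Atp5d and Gabpa 967 bases with Atp5j, and small noncoding RNA genes lie within Atp5b and Atp5c1. The use of strand in counting is not stated, so reads of such partners cannot be told apart. Processed copies named Atp5c1-ps and Atp5pb-ps exist for Atp5c1 and Atp5f1, and their part in those counts was not tested.

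The 3 members whose recovery with IMP2 is described at greatest length below are Atp5e of the central stalk and Atp5o and Atp5h of the peripheral stalk. The 150 bases before the start of each gene are shown from the RefSeq promoter table of GRCm38.p6, on the strand of the gene and 5′ to 3′, at chr2:174464102-174464251 for Atp5e, chr16:91931631-91931780 for Atp5o and chr11:115419920-115420069 for Atp5h, all on the minus strand. Capitals mark CCGGAAG, the core bound by ETS factors, and GCGCANGCGC, the pattern bound by NRF1, on either strand. NRF1 is a factor known for switching on nuclear genes of respiration.
Atp5e: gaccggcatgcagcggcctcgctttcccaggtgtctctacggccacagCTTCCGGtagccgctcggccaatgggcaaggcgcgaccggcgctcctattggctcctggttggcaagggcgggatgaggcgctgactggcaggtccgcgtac
Atp5o: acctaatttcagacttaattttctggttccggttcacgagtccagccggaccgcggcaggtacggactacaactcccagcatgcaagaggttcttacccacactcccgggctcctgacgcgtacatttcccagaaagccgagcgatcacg
Atp5h: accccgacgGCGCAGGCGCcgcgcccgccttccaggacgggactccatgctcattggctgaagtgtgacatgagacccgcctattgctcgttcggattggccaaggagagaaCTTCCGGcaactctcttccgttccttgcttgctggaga
Over windows from 250 bases before to 50 after the start, 8 of the 9 members were matched in the table. The ETS core was in the windows of Atp5e, Atp5h and Atp5j, against 9.93% of all 27025 genes of the table. The NRF1 pattern was in those of Atp5c1, Atp5o and Atp5h, against 5.19%. The Atp5o match begins at position 9 after the start and is outside the printed bases. AAGATGGC, bound by YY1, was in the windows of Atp5j and Atp5f1 (3.19% of all genes), CCAAT in 4 members (41.1%) and TATAAA in none of the 8 matched (15.7%). The motifs do not overlap each other in the printed stretches. These matches are descriptions of letters in the DNA, and no readout here bears on the factors.

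Recovery with IMP2 in the wild type was asked first by comparing WT IP with WT total RNA. In the knockout table all 7 members measured had negative log2 ratios, and 3 of them fell, namely Atp5e of the central stalk, Atp5a1 of the head and Atp5o of the peripheral stalk. None was higher. Over all genes tested 12.4% were called lower and 9.92% higher by edgeR's quasi-likelihood test at a Benjamini-Hochberg adjusted p under 0.05. The median was log2 -0.18 over the members and log2 0.01 over all genes. With upper-quartile scaling all genes split into 214 higher and 94 lower, against 118 and 148 with TMM, and 1 member, Atp5e, stayed lower.

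Atp5e, the epsilon subunit that sits at the foot of the central stalk, had 2050.4 and 2036 CPM in WT IP, against 5362 and 4399 CPM in WT total RNA. The immunoprecipitates lay far below total RNA and within 1% of each other (1.01-fold). It fell by 1.26 on the log2 scale, with a standard error (SE) of 0.14 and an adjusted p of 0.000992 in edgeR, which is 0.419 of its level in total RNA. The other central stalk mRNAs moved little. Atp5d, the delta subunit that joins the shaft to the membrane ring, had 5475 and 4844 CPM in WT IP, against 6586 and 5142 CPM in WT total RNA, and the groups overlapped (log2 -0.18 ± 0.16, adjusted p = 0.428 in edgeR). Atp5c1, the gamma subunit that forms the shaft itself, had 284 and 262 CPM in WT IP, against 316 and 299 CPM in WT total RNA (log2 -0.17 ± 0.14, adjusted p = 0.377 in edgeR). Its groups did not overlap, but the difference missed the threshold. The share of all genes without overlap was not computed for this comparison, so lack of overlap in the members has no background here.

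In the head, Atp5a1 had 7198 and 5773 CPM in WT IP, against 10530.4 and 9192 CPM in WT total RNA, a fall of log2 -0.60 ± 0.18 (SE; adjusted p = 0.0405 in edgeR). Both immunoprecipitates lay below both total RNA libraries. Atp5b, which carries the catalytic residues, had 6452 and 4772 CPM in WT IP, against 6894 and 4826 CPM in WT total RNA. Its groups overlapped, at log2 -0.06 ± 0.29 (adjusted p = 0.887 in edgeR). In the peripheral stalk, Atp5o, the cap that binds the head, had 1198 and 1365 CPM in WT IP, against 1749 and 1627 CPM in WT total RNA, a fall of log2 -0.40 ± 0.11 (adjusted p = 0.0336 in edgeR). Atp5h had 500.2 and 560.5 CPM in WT IP, against 605.7 and 589 CPM in WT total RNA, lower without overlap but at log2 -0.17 ± 0.13 (adjusted p = 0.336 in edgeR). Leaving out any 1 of libraries 16, 17, 21 or 22 ended the calls of Atp5a1 (log2 -0.78 to -0.45) and Atp5o (log2 -0.50 to -0.31) and kept that of Atp5e.

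The IgG table holds other libraries of the same comparison, WT IP 25 with total RNA 15 and 20, and in a fit of that table alone no member was called. This fit has 1 residual degree of freedom and was added after the data were seen. Atp5e was again lower, but at log2 -0.74 ± 0.43 (SE; adjusted p = 0.702 in edgeR), and its level in WT IP 25 was 0.926 of that in total RNA 15 and 0.443 of that in total RNA 20. Atp5a1 was at log2 -0.11 ± 0.42 and Atp5o at -0.37 ± 0.41, both short of the threshold. Atp5b at log2 0.22 ± 0.42, Atp5d at 0.15 ± 0.42 and Atp5f1 at 0.27 ± 0.39 had positive values. Atp5c1, Atp5h and Atp5j were at log2 -0.72, -0.20 and -0.053.

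**Figure D1:**
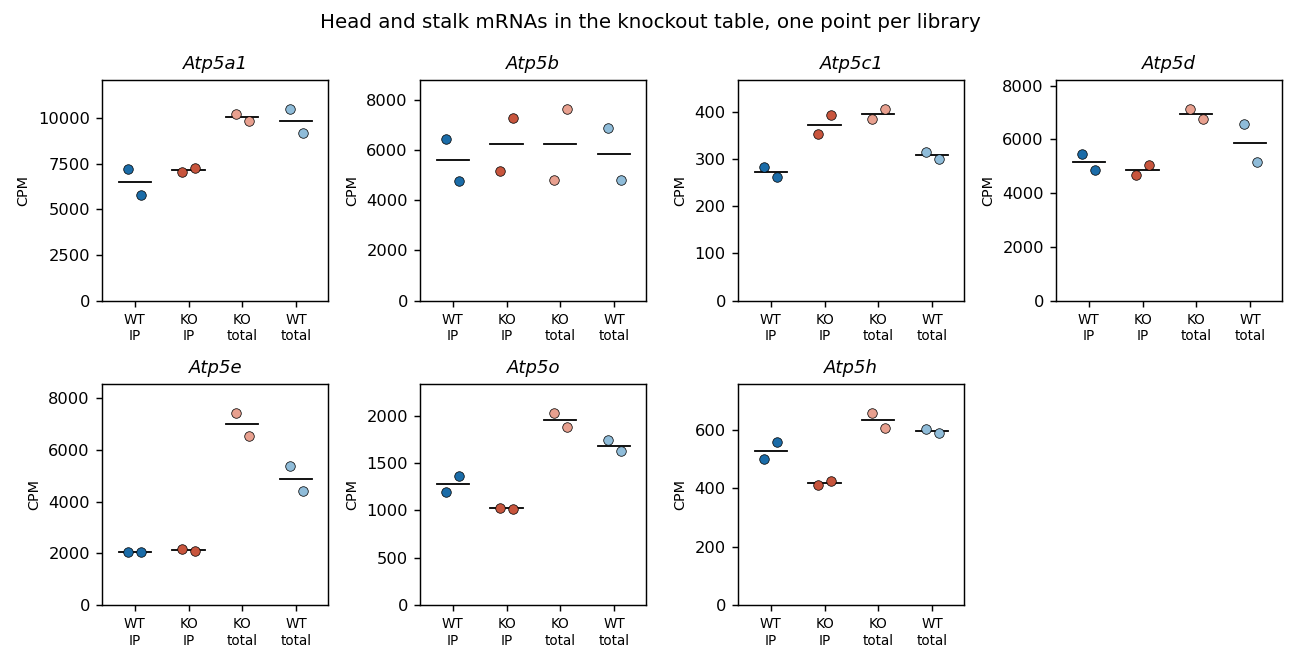
TMM-scaled CPM (vertical axes, linear from 0) of the 7 members of the knockout table, 1 point per library and a line at each group's mean, 2 libraries per group. Atp5e lies between 2036 and 2147 CPM in all 4 immunoprecipitates and between 4399 and 7440.3 CPM in total RNA, while Atp5b spans about the same range in every group.

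In the knockout, where the antibody's target is absent by the labels, 4 of the 7 members were lower in KO IP than in KO total RNA, namely Atp5e, Atp5o, Atp5h and Atp5d, and none was higher. Over all genes tested 15.7% were called lower and 10.6% higher. The median was log2 -0.52 over the members and log2 -0.01 over all genes. With upper-quartile scaling all genes split into 273 higher and 130 lower, and with library size alone into 246 and 145, against 126 and 187 with TMM.

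Atp5e had 2147 and 2089 CPM in KO IP, against 7440.3 and 6550.1 CPM in KO total RNA. It was again the member that fell most, at log2 -1.72 ± 0.14 (SE; adjusted p = 0.000193 in edgeR), 0.303 of its level in total RNA. Atp5o had 1029 and 1014 CPM in KO IP, against 2035 and 1883 CPM in KO total RNA, a fall of log2 -0.94 ± 0.11 (adjusted p = 0.000832 in edgeR). Atp5h, the peripheral stalk subunit next to it, had 411 and 424 CPM in KO IP, against 660.5 and 609 CPM in KO total RNA. The groups stood well apart, at log2 -0.60 ± 0.13 (adjusted p = 0.00974 in edgeR), but the adjusted p was 0.0693, 0.0807 and 0.0611 without library 18, 23 or 24.

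Atp5d had 4669.9 and 5035 CPM in KO IP, against 7149.7 and 6759 CPM in KO total RNA, lower by log2 -0.52 ± 0.16 with an adjusted p of 0.0469 in edgeR. That call lies at the threshold: it was lost without any 1 of libraries 18, 19, 23 or 24 and under each other scaling tried. Atp5a1 had 7074 and 7291 CPM in KO IP, against 10231 and 9852 CPM in KO total RNA, also without overlap, at log2 -0.48 ± 0.18 (adjusted p = 0.0714 in edgeR; 0.0167 with DESeq2). The share of all genes without overlap was not computed for the knockout either. Atp5b and Atp5c1 did not separate. Atp5b had 5172 and 7306 CPM in KO IP, against 4797 and 7667 CPM in KO total RNA (log2 0.00 ± 0.29), and Atp5c1 had 352.6 and 394 CPM, against 384 and 407 CPM (log2 -0.08 ± 0.13).

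The other background, besides KO IP, is the immunoprecipitate with nonspecific IgG. It has 1 library, so the model gives it the spread of the replicated groups, and it was compared with WT total RNA in a model of both tables that has a term for the table. Of the 7 members 1 was lower and none higher, where 11.9% of all genes tested were called lower and 11.7% higher. The lower member was Atp5e, at log2 -1.55 ± 0.36 (SE; adjusted p = 0.0164 in edgeR). With upper-quartile scaling all genes split into 202 higher and 93 lower and with library size alone 181 were higher, against 139 and 142 with TMM. The single IgG library was at 0.502 of total RNA 15 and 0.240 of total RNA 20 for Atp5e, and its adjusted p holds no replicate variation of IgG. Atp5e was thus called lower against total RNA with IMP2 present, with IMP2 absent and with IgG. The share of all genes called lower in all 3 was not computed. Atp5j2 and 2010107E04Rik of the membrane part and the brown adipocyte marker Cox8b were called lower in all 3 as well. The call of Atp5e held under 14 of 15 alternatives in WT IP, with the IgG table alone as the exception. It held under all 13 in KO IP and under all 13 in IgG. The WT IP and IgG comparisons share WT total RNA libraries. Without total RNA 15, 3 members were lower in IgG, and without total RNA 20 Atp5c1 was called higher, at log2 0.59. The remaining 6 members had negative values in the IgG comparison, from log2 -0.75 ± 0.46 for Atp5d to -0.03 ± 0.35 for Atp5c1.

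**Figure D2:**
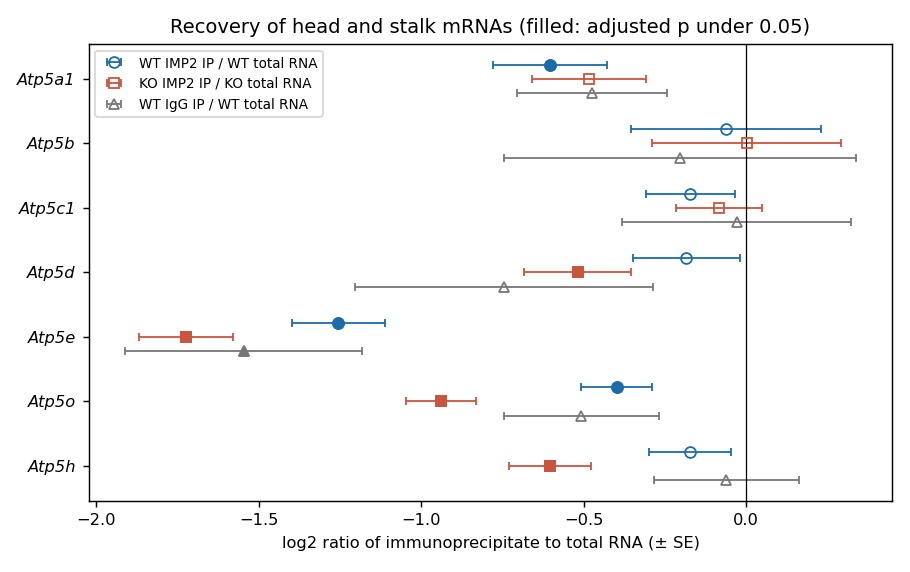
Log2 ratio of each kind of immunoprecipitate to total RNA of the same genotype (horizontal axis) with its standard error, from edgeR, for WT IP and KO IP in the knockout table and IgG in both tables. Filled symbols have an adjusted p under 0.05; Atp5e is filled in all 3 kinds, at log2 -1.26, -1.72 and -1.55.

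The single libraries of the IgG table show all 9 members with IMP2 and IgG side by side. Atp5e had 2721 CPM in WT IP 25 and 1477 CPM in IgG, with 2940.2 and 6143 CPM in total RNA 15 and 20. Atp5d had 4838 CPM in WT IP and 2415 CPM in IgG, with 2182 and 6565 CPM in total RNA. IgG lay lowest for Atp5e, while for Atp5d the lowest of the 4 libraries was a total RNA library. Atp5b had 3933 CPM in WT IP and 2693 CPM in IgG, with 1531 and 5218 CPM in total RNA, and Atp5a1 had 3796 CPM in WT IP and 2795 CPM in IgG, with 3763 and 4451 CPM in total RNA. Atp5o had 1145 CPM in WT IP and 922 CPM in IgG, with 1161 and 1794 CPM in total RNA. In these 5 mRNAs WT IP was higher than IgG, by 1.24-fold for Atp5o (95% Poisson counting interval 1.17 to 1.32) up to the ratio of Atp5d (1.94 to 2.07). Such intervals hold counting error between single libraries only and narrow as counts rise. The share of all genes that stand apart by them was not computed.

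The other 4 did not share that order beyond counting error. Atp5c1 ran the other way, with 115 CPM in WT IP and 155 CPM in IgG and 117 and 259 CPM in total RNA, a ratio of WT IP to IgG of 0.742 (0.615 to 0.889). Atp5h had 298 CPM in WT IP and 289.7 CPM in IgG, with 270.2 and 415 CPM in total RNA. For Atp5h the ratio of WT IP to IgG was 1.03 with an interval of 0.914 to 1.16, so no difference was detectable at this depth. Atp5j, coupling factor F6, had 54.2 CPM in WT IP and 59.5 CPM in IgG, with 36.6 and 74.3 CPM in total RNA, and Atp5f1, the b subunit that spans the length of the peripheral stalk, had 272 CPM in WT IP and 241 CPM in IgG, with 209 and 242 CPM in total RNA. Their ratios of WT IP to IgG were 0.911 (0.687 to 1.19) and 1.13 (0.995 to 1.28), intervals that hold 1 and cover counting error only. The 2 total RNA libraries differed more than that: library 20 was above library 15 for all 9 members, by 3.41-fold for Atp5b and 3.01-fold for Atp5d, with a median of log2 1.02 over the members and 0.02 over all 8966 genes. Muscle markers, all 16 listed here, summed to 9755 CPM in WT IP, 7112 CPM in IgG, and 18420.1 and 10027 CPM in total RNA 15 and 20; their part in that split was not tested.

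**Figure D3:**
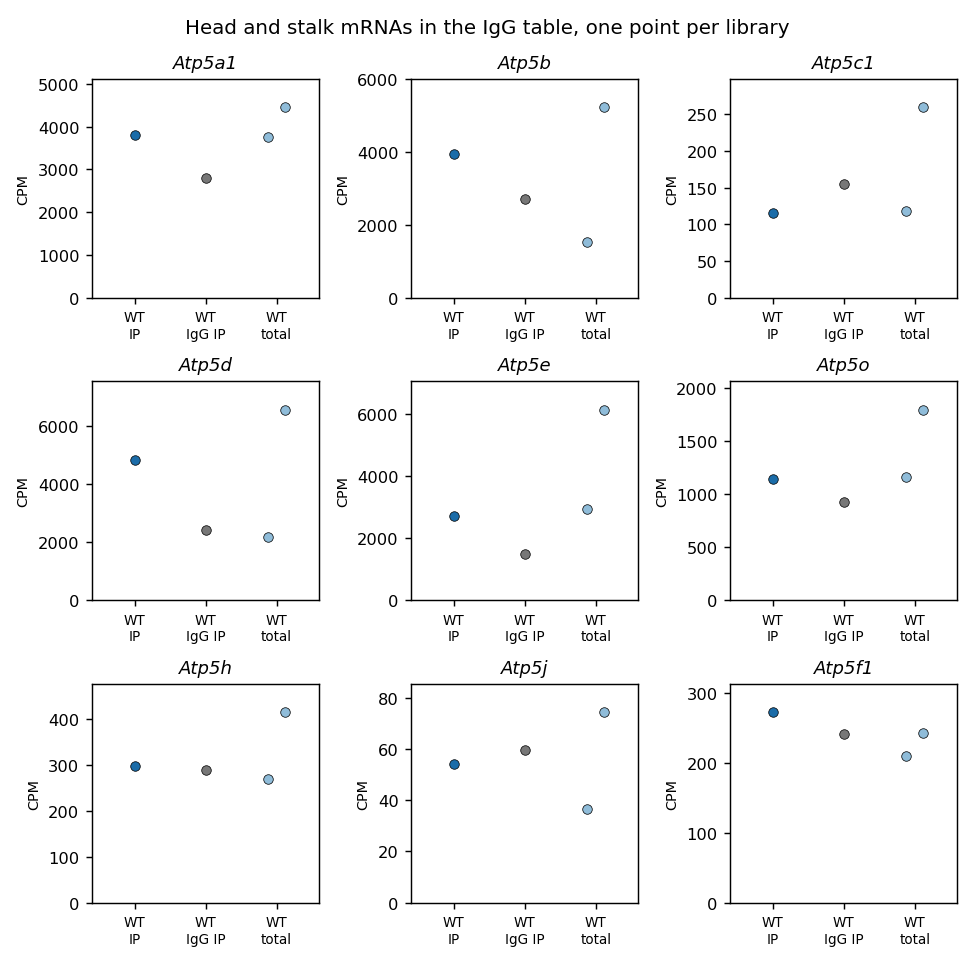
TMM-scaled CPM (vertical axes, linear from 0) of the 9 members in the 4 libraries of the IgG table, 1 point per library: WT IP, WT IgG and 2 of WT total RNA. The 2 total RNA points lie far apart for Atp5b (5218 and 1531 CPM) and Atp5d (6565 and 2182 CPM).

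Set against the spread of all libraries, WT IP did not differ from IgG beyond that spread in any of the 7 members tested in both tables. None was called, where 0.336% of all genes tested were called higher and 1.26% lower. The values ran from log2 0.64 ± 0.48 (SE) for Atp5d and 0.45 ± 0.36 for Atp5e to -0.39 ± 0.39 for Atp5c1. KO IP against IgG, which stand in different tables and are joined only by the term for the table, gave no call either, where 0.252% of all genes tested were called in each direction. The values there ran from log2 0.54 ± 0.54 for Atp5d to -0.45 ± 0.27 for Atp5h. Atp5d, at 1.56-fold in WT IP over IgG, was not called, so errors of this size leave room for differences larger than that value. The single IgG library cannot show them.

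Whether recovery depended on IMP2 was asked by the difference of the log2 ratios, WT recovery minus KO recovery. No member was called and none of the 1189 genes tested was, so 0% were called in either direction by edgeR, DESeq2 or limma-voom. Without adjustment 29 genes passed 0.05 in edgeR. Of the 7 members 4 had positive values, against 592 of 1189 genes. Both measured peripheral stalk mRNAs and 2 of the 3 central stalk mRNAs had positive differences, from 0.33 to 0.54, while both head mRNAs and Atp5c1 lay between -0.12 and -0.06. The median was 0.33 over the members and 0.00 over all genes.

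Recovery per library is a ratio of scaled CPM, relative to other genes, and not the share of the mRNA pulled down. Atp5o was recovered at 71.0 and 80.9% of its mean total RNA level in WT IP, against 52.5 and 51.8% in KO IP. The difference was log2 0.54 ± 0.15 (SE; unadjusted p = 0.00697, adjusted p = 0.999 in edgeR). Atp5h was recovered at 83.7 and 93.8% in WT IP, against 64.8 and 66.8% in KO IP, a difference of log2 0.43 ± 0.18 (unadjusted p = 0.0399). Atp5e was recovered at 42.0 and 41.7% in WT IP, against 30.7 and 29.9% in KO IP, a difference of log2 0.47 ± 0.20 (unadjusted p = 0.0451). Atp5d was recovered at 93.4 and 82.6% in WT IP, against 67.2 and 72.4% in KO IP, at log2 0.33 ± 0.23. Over the mean of total RNA, the libraries of the genotypes did not overlap in these 4 mRNAs. Over single total RNA libraries Atp5d did overlap, at 73.5% for WT IP 22 over 16 and 74.5% for KO IP 24 over 19. The share of all genes without overlap was not computed. Over the mean, the head subunits crossed. Atp5a1 was at 73.0 and 58.5% in WT IP, against 70.4 and 72.6% in KO IP, and Atp5b at 110.1 and 81.4%, against 83.0 and 117%. Atp5c1 was at 92.2 and 85.2% in WT IP, against 89.1 and 99.6% in KO IP.

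The labels tie no immunoprecipitate to a total RNA library, but libraries 21 and 22 differed from each other as 16 and 17 did (Pearson r = 0.716 across 1189 genes, which are not independent replicates), and 23 and 24 as 18 and 19 did (r = 0.802). Atp5b, set against the total RNA library that deviates with it, was at 93.6 and 98.9% in WT IP (21 over 16 and 22 over 17). In KO IP it was at 107.8 and 95.3% (23 over 18 and 24 over 19), a narrower spread than over the means. The pairing was chosen from these same counts by how libraries deviate together, which by itself favours a narrower spread. The paired values and the block below are therefore descriptions and no separate support. Paired in the same way, Atp5a1 was at 68.4 and 62.8% in WT IP, against 69.1 and 74.0% in KO IP. Atp5c1 was at 89.8 and 87.6%, against 91.8 and 96.8%, so both were higher in KO IP without overlap. Atp5d, Atp5e, Atp5o and Atp5h stayed higher in WT IP without overlap. The share of all genes that separate when paired was not computed. With this pairing as a block in the model, read from the data and not from the labels, Atp5a1 was also called lower in KO IP over KO total RNA (log2 -0.48 ± 0.081, SE; adjusted p = 0.000662 in edgeR). The same 3 members were called in WT IP over WT total RNA. No member and 0 genes were called in the difference of recoveries, with 136 genes under an unadjusted p of 0.05 in edgeR. Atp5o had there log2 0.54 ± 0.13 (adjusted p = 0.125), Atp5e 0.47 ± 0.13 (adjusted p = 0.189) and Atp5h 0.42 ± 0.13 (adjusted p = 0.236).

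The table that gives these differences is cut on one side. Over its 1189 genes the difference ran from log2 -0.30 to 0.81, with 69 genes from -0.30 to -0.25, 0 genes lower than that and 138 higher than 0.3. Genes with a more negative difference are not in the table, so a surplus of positive members cannot be read against brown fat mRNAs at large. All 29 genes with an unadjusted p under 0.05 had positive values.

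The difference is the sum of WT IP over KO IP and of KO total RNA over WT total RNA, terms whose sizes varied between members. Neither the difference nor either term was called by edgeR for any member, and the terms were not tested against each other. For Atp5e the larger term was total RNA. Its immunoprecipitates were alike at 2050.4 and 2036 CPM in WT IP and 2147 and 2089 CPM in KO IP (log2 -0.05 ± 0.14, SE). Its total RNA was at 7440.3 and 6550.1 CPM in the knockout and 5362 and 4399 CPM in the wild type (log2 0.52 ± 0.14). For Atp5h the larger term was the immunoprecipitates, with 500.2 and 560.5 CPM in WT IP and 411 and 424 CPM in KO IP (log2 0.34 ± 0.13). Its total RNA difference was log2 0.09 ± 0.12. Atp5o drew on both, at log2 0.33 ± 0.11 between the immunoprecipitates and 0.21 ± 0.11 between the total RNA groups. In Atp5c1 the terms were of opposite sign, at log2 -0.45 ± 0.14 and 0.36 ± 0.13, and left a difference of -0.09 ± 0.19.

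**Figure D4:**
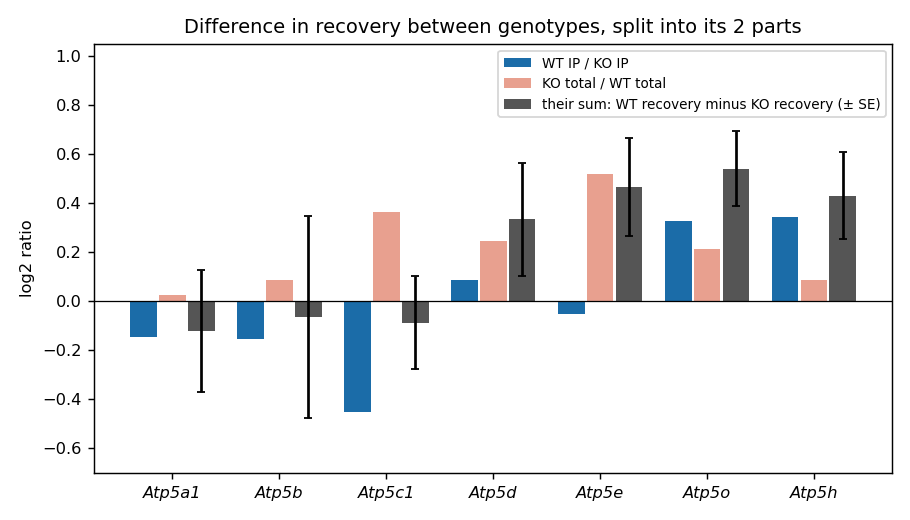
For each of the 7 members of the knockout table, log2 WT IP over KO IP, log2 KO total RNA over WT total RNA and their sum, WT recovery minus KO recovery, with the standard error of the sum (vertical axis, log2 ratio). The sum is largest for Atp5o (0.54), Atp5e (0.47) and Atp5h (0.43). The larger term is total RNA in Atp5e (0.52) and the immunoprecipitates in Atp5h (0.34), and none of these values was called by edgeR.

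Between the immunoprecipitates themselves, WT IP over KO IP, no member was called and 0% of all genes tested were called in either direction, though without adjustment 123 genes were higher and 88 lower at 0.05 in edgeR. DESeq2 called 60 higher and 33 lower. Atp5o and Atp5h lay higher in both WT IP than in both KO IP libraries, while Atp5c1 and, by a narrow gap, Atp5e lay lower. How many of all genes stood apart in this way was not counted. Atp5c1 had 284 and 262 CPM in WT IP, against 353 and 394 CPM in KO IP, with an adjusted p of 0.168 in edgeR and 0.0448 with DESeq2. The summed muscle markers were 1540 and 7248 CPM in WT IP and 363 and 1384 CPM in KO IP. With the muscle markers left out of the table before scaling, a setting chosen after the data were seen, Atp5c1 was at log2 -0.44. That setting leaves any Atp5c1 RNA from muscle in the counts, so the part of muscle was not tested.

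In the tissue itself, all 7 members had positive values in KO total RNA over WT total RNA, from log2 0.03 to 0.52. Of all 1189 genes tested, 598 had positive values. The median was 0.21 over the members and 0.00 over all genes. This comparison is a term of the difference on which the table is cut, so the surplus cannot be read against brown fat mRNAs at large. No member was called, and 0% of all genes tested were called in either direction by edgeR, and without adjustment 74 were higher and 58 lower at 0.05. DESeq2 called 18 higher and 17 lower. Atp5e had the largest value, log2 0.52 ± 0.14 (SE; adjusted p = 0.288 in edgeR, 0.015 with DESeq2), and both knockout libraries were above both wild-type libraries. Atp5c1, with 384 and 407 CPM in KO total RNA, against 316 and 299 CPM in WT total RNA, was at log2 0.36 ± 0.13 (adjusted p = 0.37 in edgeR). Atp5d, Atp5o and Atp5h were also higher without overlap, at log2 0.25 ± 0.16, 0.21 ± 0.11 and 0.09 ± 0.12 (unadjusted p = 0.505 in edgeR for Atp5h). Atp5a1 and Atp5b overlapped, at log2 0.03 ± 0.17 and 0.09 ± 0.29. What share of all genes was free of overlap was not computed, so the lack of it in these members has no background. Without WT total RNA 17 the value of Atp5e was 0.38 and those of Atp5a1 and Atp5b were -0.07 and -0.15, and without KO total RNA 18 or 19 Atp5a1 was at -0.0048 or Atp5b at -0.29. The muscle markers summed to 596 and 2470 CPM in KO total RNA and 2701 and 10515 CPM in WT total RNA. Atp5e was at log2 0.52 with them left out of the table. Leaving them out does not take muscle RNA out of the counts of Atp5e, so the part of muscle was not tested.

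The members differed in how closely they followed each other over the 8 libraries of the knockout table. As a description over libraries that include immunoprecipitates and total RNA, each member was set against the mean of all 7, which includes itself and so raises r. Atp5e (Pearson r = 0.978), Atp5d (0.939), Atp5a1 (0.932), Atp5o (0.900) and Atp5h (0.786) followed that mean, and Atp5c1 (0.491) and Atp5b (0.253) less. Between single members, r was 0.64 to 0.97 among the first 5, -0.16 to 0.43 for Atp5b and -0.074 to 0.48 for Atp5c1. The closest pair was Atp5o and Atp5h of the peripheral stalk, at r = 0.969. Atp5b varied most between libraries of a group, by 1.35 to 1.60-fold in each of the 4 groups, against at most 1.28-fold for any other member. Its 2 higher libraries in the wild type were 16 and 21, and in the knockout 19 and 24. The genes outside the list whose log2 CPM followed the members' mean most closely were Dnlz (r = 0.990), a partner of the mitochondrial chaperone Hspa9, Ndufb9 (0.987), an accessory subunit of complex I, Ftl1 (0.985), the ferritin light chain, Mrpl30 (0.983), a mitochondrial ribosomal protein, and Ccdc124 (0.980).

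The membrane part of the same enzyme, which holds the proton channel, is described by the few of its mRNAs that were measured. Of 11 genes listed for it, 4 are in the knockout table, and 2 of the 4 were lower in WT IP than in WT total RNA, Atp5j2 at log2 -0.79 ± 0.13 (SE; adjusted p = 0.00498 in edgeR) and 2010107E04Rik at -0.79 ± 0.10 (adjusted p = 0.00168). All 4 were lower in KO IP than in KO total RNA, with Atp5j2 at log2 -0.93, Atp5k at -0.85, 2010107E04Rik at -0.81 and Atp5g3, which encodes the c subunit of the rotating ring, at -0.34. In IgG over WT total RNA 2010107E04Rik was at log2 -2.18 ± 0.21 (adjusted p = 0.000303 in edgeR) and Atp5j2 at -1.15 ± 0.25 (adjusted p = 0.012), both lower, while Atp5k at -0.43 and Atp5g3 at -0.32 were not called. 2010107E04Rik, a small proteolipid of the enzyme, had 952 CPM in WT IP 25 and 311 CPM in IgG, with 1374 and 1788 CPM in total RNA. It was the only ATP synthase mRNA among those tested that was higher in WT IP than in IgG (log2 1.37 ± 0.21, adjusted p = 0.0113 in edgeR), and it was higher in KO IP than in IgG as well (log2 1.31 ± 0.24, adjusted p = 0.034). Atp5k had the largest WT recovery minus KO recovery of the 1189 genes, log2 0.81 ± 0.35, with 2721 and 4714 CPM in WT IP, 2416 and 1997 CPM in KO IP, 4344 and 3632 CPM in KO total RNA and 3419 and 4221 CPM in WT total RNA. Its WT IP libraries lay far apart.

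Other mRNAs of the enzyme's surroundings were few in the knockout table. The assembly factor Atpaf2, 1 of 5 listed, had log2 0.16 ± 0.14 (SE) in WT IP over WT total RNA and 0.36 ± 0.14 in KO IP over KO total RNA and was not called. The phosphate carrier Slc25a3 and the ADP/ATP carrier Slc25a4, 2 of 6 listed, bring in what the head uses; they had log2 0.38 ± 0.20 and -0.02 ± 0.13 in WT IP over WT total RNA and 0.55 ± 0.19 and 0.19 ± 0.13 in KO IP over KO total RNA, with no call. Of the soluble part of the vacuolar proton pump, a related rotary enzyme, 3 of 8 genes are listed. Atp6v1d was lower in WT IP at log2 -0.45 ± 0.13 (adjusted p = 0.0371 in edgeR), Atp6v1g1 was lower in KO IP at -0.56 ± 0.13 (adjusted p = 0.0158), and Atp6v1f was lower in IgG at -0.78 ± 0.23 (adjusted p = 0.0323). No test of the head and stalk against these lists was made.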

How the data were processed

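The 12 brown fat libraries were analysed as read counts for RefSeq transcripts, deposited by the authors as unscaled whole numbers in 2 tables that share no library, with 0 sample columns left unused. TopHat2 2.0.8, Cufflinks 2.1.1 and mm10 are named per the submitters' processing notes. The counter, the annotation version, the rule by which the knockout table was listed and the use of strand are not stated in any source used here. Transcripts without a symbol (117 and 835) were named by accession in the RefSeq table of GRCm38.p6 (114 and 813). The 3 and 22 left unnamed, 8.65 to 29.2% and 7.39 to 15.8% of counts, stayed out of library sizes and tests.

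Counts were scaled by TMM and tested with the quasi-likelihood test of edgeR 4.0.16 in R 4.3.3 over all genes after its low-count filter, with Benjamini-Hochberg adjustment over all genes and a threshold of 0.05. The knockout table gave 1189 genes in 8 libraries with 4 residual degrees of freedom (biological coefficient of variation 15.3%), and both tables together 12 libraries with 6 (16.3%). Intervals for single libraries are 95% Poisson intervals, and more counts make them narrower. The chi-square of replicate pairs, per degree of freedom, was 13.7 to 98.6, so none was 1 library deposited again. Whether the libraries of 1 group are from different animals is not labelled, and p-values then reflect only how these samples vary. Methods were tested on simulated data. Correlations used log2 CPM with a prior count of 2.

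The rule names all members, at most 2 high and 2 low genes of each other list, Ucp1, Igf2bp2 and the 5 closest pattern neighbours. The members and lists were chosen with earlier results of these data known. Alternatives were other scalings, no filter, DESeq2 1.42.0, limma-voom 3.58.1, summed transcripts, other tables in the model, each library left out and, added after the data were seen, the muscle markers left out, the IgG table alone for WT IP over WT total RNA, and a block of libraries that deviate together. The endothelial list had 4 of 5 genes (207.5 CPM in WT IP, 160.1 CPM in IgG and 232 to 241 CPM in total RNA), the leukocyte list 2 of 6 (8.65, 13.4 and 15.9 to 21.1 CPM) and the white adipocyte list 3 of 3 (449.6, 216 and 366 to 431 CPM) in the IgG table.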

Additional observations from a re-analysis of the deposited data

Results flagged for a closer look

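Atp5e in WT total RNA stood out because 1 of its 4 libraries lay far from the rest. On the scale common to both tables it had 5201, 4242, 5273 and 11137 CPM in libraries 16, 17, 15 and 20. The gap from library 20 to the next library was 0.851 of the whole range, above what the Dixon test allows at 95% for 4 libraries. The test was run on 7 genes, and chance flags about 1 in 20 such groups. Without library 20 Atp5e was at log2 -1.18 in IgG over total RNA (adjusted p = 0.0255 in edgeR), against -1.55 with it. No explanation was tested.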

How the results depend on the processing

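Atp5e fell against total RNA in KO IP (-1.81 to -1.56) and IgG (-1.84 to -1.18), and Atp5o in KO IP (-0.99 to -0.77), under every alternative run. In WT IP Atp5e ranged from log2 -1.39 to -0.74 and was called under all but the IgG table alone, where 0 members were called. Members lower in WT IP over WT total RNA numbered 3, but 1 with upper-quartile scaling and 1 with any 1 of the 4 libraries left out; in KO IP over KO total RNA they numbered 4, and 2 to 3 with a library left out. The replicate block of libraries that deviate together, added after the data were seen, has 2 residual degrees of freedom and gave 3 lower members in WT IP over WT total RNA, 5 in KO IP over KO total RNA and none in the difference of recoveries. Over all genes it called 311 higher and 335 lower in WT IP and 338 higher and 348 lower in KO IP. DESeq2 called 1 member lower in WT IP over KO IP (Atp5c1) and 1 higher in KO total RNA over WT total RNA (Atp5e), against none. In IgG over WT total RNA 1 member was lower, 3 without total RNA 15 (1 to 3 over libraries left out), and 1 was higher without total RNA 20 (0 to 1), which is Atp5c1 at log2 0.59. The cause was not tested.

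Other values that changed sign passed no threshold, and those under a setting other than a library left out lay between log2 -0.034 and 0.22. In WT IP over WT total RNA Atp5b was at log2 0.22 and Atp5d at 0.15 in the IgG table alone, and Atp5b was at log2 0.087 with upper-quartile scaling, 0.0053 with library size alone and 0.0022 with both tables. In KO IP over KO total RNA Atp5c1 was at 0.081 with upper-quartile scaling and 0.044 with library size alone. In WT IP over IgG Atp5a1 was at -0.0071 with relative log expression, -0.016 with upper-quartile scaling, -0.0072 with library size alone, -0.0073 with DESeq2, -0.034 with summed transcripts and -0.014 without muscle markers, and Atp5h was at 0.040 in the IgG table alone. In IgG over WT total RNA Atp5c1 was at 0.12 with upper-quartile scaling, 0.094 with library size alone, 0.0048 with DESeq2, 0.059 with limma-voom, 0.039 with summed transcripts and 0.0064 without muscle markers. Atp5h was there at 0.087 with upper-quartile scaling and 0.055 with library size alone, and Atp5b at 0.033 with limma-voom.

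With each library left out in turn, Atp5b ranged from log2 -0.30 to 0.22 in WT IP over WT total RNA, -0.26 to 0.38 in KO IP over KO total RNA, -0.44 to 0.22 in WT recovery minus KO recovery, -0.41 to 0.11 in WT IP over KO IP, -0.29 to 0.38 in KO total RNA over WT total RNA and -0.61 to 0.51 in IgG over WT total RNA. Atp5a1 ranged from -0.31 to 0.029 in the difference of recoveries, -0.34 to 0.0031 in WT IP over KO IP, -0.069 to 0.13 in KO total RNA over WT total RNA and -0.17 to 0.091 in WT IP over IgG. Atp5c1 ranged from -0.15 to 0.039 in KO IP over KO total RNA, -0.51 to 0.012 in WT IP over IgG and -0.24 to 0.59 in IgG over WT total RNA. Atp5d ranged from -0.35 to 0.0049 in WT IP over WT total RNA and -0.025 to 0.17 in WT IP over KO IP, and Atp5h from -0.19 to 0.23 in IgG over WT total RNA.

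All-gene counts ranged over the alternatives from 4 to 311 higher and 61 to 335 lower in WT IP over WT total RNA, 47 to 338 and 87 to 348 in KO IP over KO total RNA, 43 to 202 and 93 to 207 in IgG over WT total RNA, 0 to 49 and 0 to 55 in WT IP over IgG, 0 to 27 and 0 to 41 in KO IP over IgG, and 0 to 60 and 0 to 33 in WT IP over KO IP. Upper-quartile or library-size scaling moved the median of all genes to as much as log2 0.15, 0.16 and 0.14 in the 3 comparisons with total RNA. Leaving out the IgG library was not run, since it is the group's only one. Depth limits Atp5j most, with 52 counts in total RNA 15.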
